A study of Mus musculus with 4 samples.

Results

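The hairpin of mouse miR-31 gives a pair of mature microRNAs, miR-31 from its 5′ side and miR-31* from its 3′ side, and both were followed across 4 small RNA libraries. The members were chosen by name, as the rows mmu-miR-31 and mmu-miR-31* of the deposited count tables, and make up 2 of the 508 microRNAs listed in at least 1 library. The cells were MEFs, fibroblasts cultured from mouse embryos. All groups carry shLuc.1309, an artificial hairpin (shRNA) aimed at luciferase, which is no mouse gene. The cells of 2 of the 4 libraries also carry ROSA-rtTA, and within each genotype 1 library came from cells without and 1 from cells with doxycycline (dox). rtTA is the reverse tetracycline transactivator, a factor that needs dox to turn on promoters with tetracycline operators. ROSA stands for Rosa26, a locus used for broad expression in mice. With 1 library per group there was no spread between replicates, so each difference compares libraries, not conditions, and no p-value was computed. The sources used here do not give the dox dose and time, the passage of the cells or the number of embryos behind each library.

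A microRNA hairpin is cut by Drosha in the nucleus and by Dicer in the cytoplasm, and 1 strand of the resulting duplex is kept by an Argonaute protein while the other is mostly degraded. The kept strand finds messenger RNAs through its seed, bases 2 to 8. An shRNA made from a microRNA-like transcript uses the same enzymes. miR-31 is known from fibroblasts and from skin and other epithelia, where it acts on adhesion and cell movement, with RhoA and the integrin alpha 5 subunit among its known targets. In human tumours its gene is often lost together with CDKN2A, whose products p16INK4a and ARF hold back the cell cycle. In cultured MEFs p19Arf, the mouse form of ARF, drives senescence.

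The mature sequences are shown because the arms differ in seed and in base composition, and later values are set beside G content. They are RefSeq's, on GRCm38.p6, and are identical to the deposited sequences apart from U for T. Capitals mark the seed.
miR-31: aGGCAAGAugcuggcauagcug
miR-31*: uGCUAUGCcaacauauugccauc
miR-31 lies at chr4:88910614-88910635 and miR-31* (now named miR-31-3p) at chr4:88910577-88910599, both on the minus strand. The seeds differ, and 0 of the other listed microRNAs shares either of them. Reads of another listed microRNA would need many mismatches to be counted here: the nearest one to miR-31 was miR-680 with 8 mismatches, and the nearest to miR-31* was let-7c-1* with 9. G makes up 8 of the 22 bases of miR-31 (36.4%) but 3 of the 23 bases of miR-31* (13.0%).

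The whole hairpin is shown with both arms in capitals, 5′ to 3′, to place the duplex.
Mir31 hairpin: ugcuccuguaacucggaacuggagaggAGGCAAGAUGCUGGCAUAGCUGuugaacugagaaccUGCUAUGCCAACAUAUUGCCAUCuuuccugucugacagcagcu
It is 106 bases long (chr4:88910557-88910662, minus strand), with 14 bases between the arms. In its predicted fold of lowest energy (-48.7 kcal/mol), 17 base pairs joined the arms, and 4 bases in each arm were unpaired.

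By the GENCODE M21 annotation of GRCm38, the hairpin lies in the third exon of the long noncoding RNA AL805899.1, on the same strand (exon 3 at 88909855 to 88910710). The nearer end of Cdkn2a lies 364 kb away at higher coordinates, on the same strand, and Cdkn2b lies 396 kb away. A single protein-coding gene stands between the hairpin and Cdkn2a, Mtap, a methionine salvage enzyme, 226 kb from the hairpin. On the other side the nearest protein-coding gene is Ifne, an interferon gene, at 30.4 kb. By exact sequence, 402 of the 508 listed microRNAs matched a RefSeq mature entry, 26 of them on chromosome 4. The nearest of these to the hairpin was miR-491, 0.788 Mb away with a mean of 2.18 CPM (counts per 1000000 microRNA counts), followed by miR-872 and its star arm at 5.75 Mb, so no listed and matched microRNA shares a tight cluster with miR-31.

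**Figure D1:**
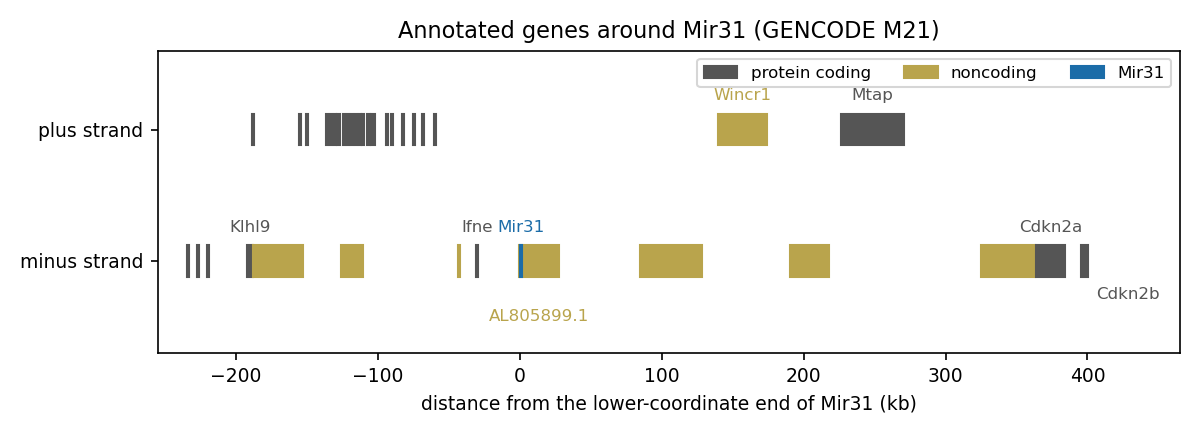
Genes annotated around Mir31, with distance from its lower-coordinate end in kb on the horizontal axis and strand on the vertical axis; pseudogenes and small RNAs other than Mir31 are not drawn. Mir31 lies inside AL805899.1, and Mtap stands between it and Cdkn2a, whose nearer end lies 364 kb away.

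Without rtTA, the library without dox held 6383594 counts and that with dox 6545093; with rtTA, these were 8780954 and 7690978 counts. Values listed below for all 4 libraries without further labels follow this order. The shRNA took 0.0725% to 0.0786% of the counts in the first 3 of these and 2.38% in the rtTA, +dox library, the direction its labels give. Levels below are CPM, the count of a microRNA per 1000000 microRNA counts of its library, the shRNA left out. The rtTA, +dox library also stood apart in base composition. Across the 372 microRNAs past a floor of 3.14 CPM on average, the correlation (Pearson) of the log2 ratio with the percentage of G was 0.72 for dox in rtTA cells and 0.69 for rtTA with dox. It was -0.20 for dox without rtTA and -0.0038 for rtTA without dox, the comparisons that do not use that library. MicroRNAs are not replicates of one another, and the part of base composition in the differences was not tested.

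Of the fibroblast and mesenchymal marker list, 10 of 11 members were listed and together held 505300 to 533019 CPM. Epithelial markers such as miR-200a, miR-205 and miR-141 bear on miR-31, which epithelia also express. All 7 were listed, with 5.49, 7.65, 20.3 and 10.9 CPM together in the order above, and 0 of them passed the floor. Of the pluripotency markers 6 of 9 were listed, with at most 1.20 CPM together. Muscle markers held 261, 245, 378 and 589 CPM together, mostly miR-206, with the libraries in the same order as for miR-31 below; whether they bear on it was not tested. Neuronal markers held 698, 774, 835 and 881 CPM, blood markers 60.4, 63.6, 82.2 and 52.5, the liver marker miR-122 at most 3.99, and the endothelial arms miR-126-3p and miR-126-5p 120, 175, 134 and 126. In the comparisons with the rtTA, +dox library, miR-126-5p had log2 ratios of -1.18 (dox in rtTA cells) and -1.95 (rtTA with dox), and miR-126-3p of 0.13 and -0.10. Whether these move with miR-31* was not tested.

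miR-31 was the ninth most abundant microRNA on average (rank 9, mean 17645 CPM), while miR-31* ranked 203 with a mean of 99.6 CPM. miR-31 had 104726 counts in the no rtTA, -dox library, or 16417 CPM (95% interval 16319 to 16516, Clopper-Pearson). It had 93156 counts and 14244 CPM (14153 to 14335) in the no rtTA, +dox library. In the rtTA libraries it had 167143 counts and 19049.7 CPM (18959 to 19140.4) without dox, and 156666 counts and 20867 CPM (20765 to 20969) with dox. Both rtTA libraries thus lay above both libraries without rtTA, and none of the intervals overlapped. Without molecular identifiers, PCR copies cannot be told from separate molecules, so all intervals cover counting error only. miR-31 took 1.42% to 2.09% of the endogenous counts and ranked 11, 14, 9 and 9 in the order above.

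miR-31* ran the other way. It had 711 counts, or 111 CPM (103 to 120), in the no rtTA, -dox library and 856 counts, 131 CPM (122 to 140), in the no rtTA, +dox library. In the rtTA libraries it had 859 counts and 97.9 CPM (91.5 to 105) without dox, and 438 counts and 58.3 CPM (53.003 to 64.1) with dox. The rtTA, +dox library was low, and the intervals of the -dox libraries overlapped. The libraries stood in exactly reversed order in the 2 arms: the dox-treated cells without rtTA were lowest for miR-31 and highest for miR-31*, and the dox-treated rtTA cells the opposite, with the -dox libraries between them. Of 125 hairpins whose arms summed to 20 counts or more in every library, 4 (3.2%) had their arms in reversed order and 4 in the same order. The miR-31 hairpin is among the former. As 4 libraries can stand in many orders, any given order is rare, and its rarity alone says little about miR-31. Arms with ratios of opposite sign were common in a single comparison: 57.6% of hairpins had them for dox in rtTA cells, 48% for dox without rtTA, 34.4% for rtTA without dox and 44.8% for rtTA with dox.

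**Figure D2:**
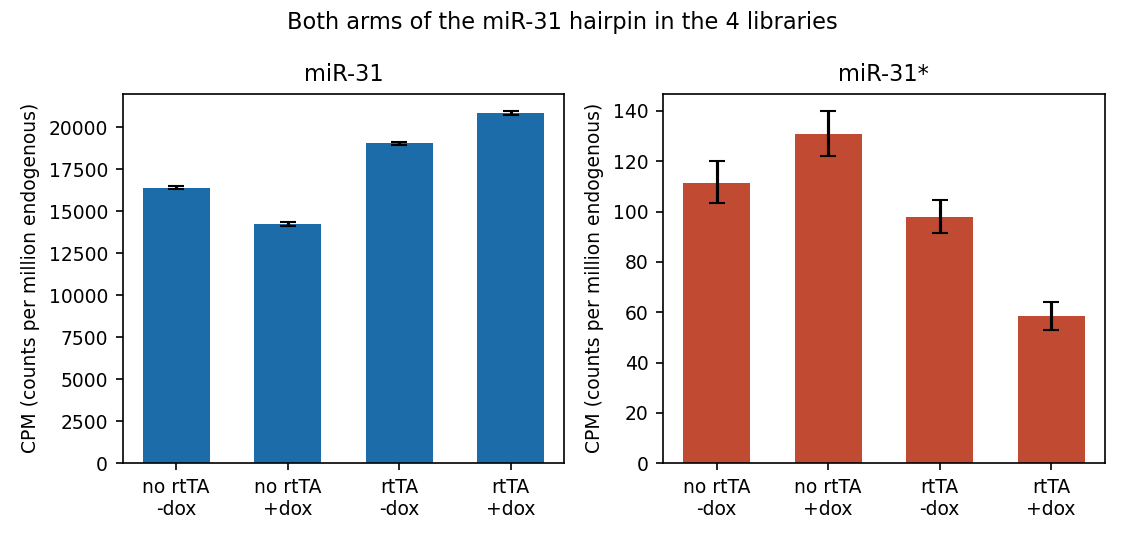
Level of each arm in CPM (bars, linear axes from 0, with a separate scale for each arm) in the 4 libraries; error bars are 95% Clopper-Pearson intervals of counting error. miR-31 was lowest in the no rtTA, +dox library (14244 CPM) and highest in the rtTA, +dox library (20867 CPM), while miR-31* went from 131 CPM in the former to 58.3 CPM in the latter.

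The highest level of miR-31 was 1.46-fold its lowest, which 240 of the 372 microRNAs past the floor exceeded (median 1.58-fold). For miR-31* the highest was 2.24-fold the lowest, and 53 of the 372 had a wider range. A call, higher or lower, needed a difference of 2-fold or more and a counting interval without equality in it. miR-31 met this in 0 of 4 comparisons and miR-31* in 1.

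Dox in rtTA cells compares the library in which the shRNA was induced with the uninduced library of the same genotype, and addresses whether a strongly made shRNA goes with a changed level of endogenous microRNAs. Here miR-31 was slightly higher (log2 ratio 0.13, 95% interval 0.12 to 0.14, 1.10-fold) and miR-31* lower (-0.75, -0.92 to -0.58, 1.68-fold lower, interval 1.49 to 1.89). Neither arm reached 2-fold, against 9.95% of the 372 microRNAs called in either direction. Of the 372, 136 had a higher ratio than miR-31 and 49 a lower ratio than miR-31*, with a median of -0.06 over all of them. With a linear trend on G content subtracted, the values were -0.23 for miR-31 and -0.12 for miR-31*.

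Dox without rtTA gives the drug alone. miR-31 was lower (-0.20, -0.22 to -0.19, 1.15-fold lower) and miR-31* higher (0.23, 0.09 to 0.38, 1.17-fold). Neither was called, against 1.61% of the 372. Both arms therefore had dox ratios of opposite sign in the 2 genotypes. The difference of the dox ratios, rtTA minus no rtTA, was 0.34 for miR-31 (delta-method interval 0.32 to 0.35) and -0.98 for miR-31* (-1.20 to -0.76). With the trend on G subtracted, miR-31 was at -0.23 with rtTA and -0.11 without, the same sign, and its difference turned to -0.12; the difference of miR-31* was then -0.24. Opposite signs were common, as 213 of the 372 had them, and 51 microRNAs had a lower difference than miR-31*.

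rtTA without dox sets the genotypes against each other while the shRNA is uninduced. miR-31 was higher with rtTA (0.21, 0.20 to 0.23, 1.16-fold), and 76 of the 372 microRNAs had a higher ratio. miR-31* was lower (-0.19, -0.33 to -0.04, 1.14-fold lower). Neither was called, against 1.88% of the 372.

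rtTA with dox sets the genotypes against each other under the drug, so that only the rtTA cells have the shRNA induced. It shares a library with each of the dox comparisons. The arms were farthest apart here. miR-31 was 1.46-fold higher (log2 ratio 0.55, 0.54 to 0.56), with 57 of 372 microRNAs above it. miR-31* was 2.24-fold lower (-1.17, -1.34 to -0.998, 1.997- to 2.52-fold), and 33 of 372 lay below it. miR-31* was the arm called lower, against 14.2% of the 372 called lower and 2.42% called higher. With a linear trend on G content subtracted it was at -0.36 and no longer called.

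The share of each arm needs no scaling between libraries, because both arms are counted in the same library. miR-31* made up 0.674% of the counts of both arms in the no rtTA, -dox library (95% interval 0.626% to 0.726%, Clopper-Pearson). It made up 0.911% (0.851% to 0.973%) in the no rtTA, +dox library. In the rtTA libraries the share was 0.511% (0.478% to 0.547%) without dox and 0.279% (0.253% to 0.306%) with dox. The 4 intervals did not overlap. Put as counts, 147, 109, 195 and 358 copies of miR-31 were counted for each miR-31* in the same order.

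The odds of miR-31* were 1.84-fold lower with dox in rtTA cells (log2 odds ratio -0.88, exact conditional 95% interval -1.05 to -0.71), and 1.35-fold higher with dox without rtTA (0.44, 0.29 to 0.58). rtTA without dox went with 1.32-fold lower odds (-0.40, -0.55 to -0.26), and rtTA with dox with 3.29-fold lower odds (-1.72, -1.89 to -1.55). By the 2-fold rule the last of these was called, where 18.4% of the 125 hairpins had lower odds of the rarer arm and 6.4% higher odds. In the other comparisons miR-31* was not called, against 20% (dox in rtTA cells), 5.6% (dox without rtTA) and 3.2% (rtTA without dox) of hairpins called in either direction. The difference of the dox log2 odds ratios, rtTA minus no rtTA, was -1.32 (-1.53 to -1.10).

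**Figure D3:**
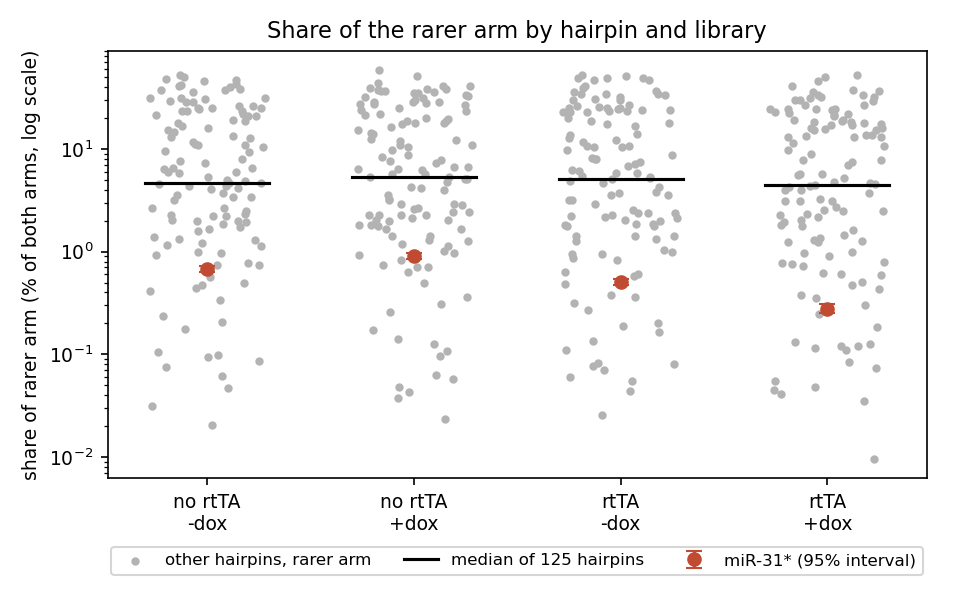
Share of the rarer arm in percent of both arms (log scale) for each of 125 hairpins in the 4 libraries; grey points are other hairpins, black lines medians, and red points miR-31* with its 95% interval. The miR-31* share was below the median in each library and lowest in the rtTA, +dox library (0.279%); 5, 2, 4 and 2 hairpins with a share of 0 are not drawn.

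Compared with other hairpins, miR-31* was a rare passenger strand in all 4 libraries. The rarer arm had a median share of 4.68%, 5.30%, 5.13% and 4.44% in the order above. Only 23, 23, 22 and 18 of the 125 hairpins had a smaller share than that of miR-31*, so its place among hairpins moved little while its share moved 3.27-fold between the most extreme libraries. Among the other hairpins, the share of the rarer arm moved more in some and less in others.

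The comparisons with the rtTA, +dox library were those in which ratios went most closely with base composition. The arms of miR-31 lie on opposite sides of this range of G. For dox in rtTA cells the linear trend gave 0.36 at the G content of miR-31 and -0.63 at that of miR-31*. After subtraction miR-31 had thus changed sign, and the counting interval of miR-31* spanned 0 (-0.29 to 0.05). For rtTA with dox the trend gave 0.38 and -0.81, and the ratios minus the trend were 0.17 for miR-31 and -0.36 for miR-31* (-0.53 to -0.19). For rtTA without dox, where the ratios had almost no relation to G, the values minus the trend were 0.29 and -0.12. Dox without rtTA had a correlation of -0.20 with G, and its trend gave -0.09 at miR-31 and 0.11 at miR-31*. Its ratios minus the trend were -0.11 for miR-31 and 0.12 for miR-31* (-0.02 to 0.27).

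Other microRNAs with G within 2.5 percentage points of an arm give the same comparison without a line. For dox in rtTA cells the 30 microRNAs near miR-31* had a median of -0.72, and 13 of them lay below its -0.75. The 35 near miR-31 had a median of 0.25, above its 0.13. For rtTA with dox these medians were -0.93 and 0.28, against -1.17 for miR-31* (9 of 30 lower) and 0.55 for miR-31 (24 of 35 lower).

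**Figure D4:**
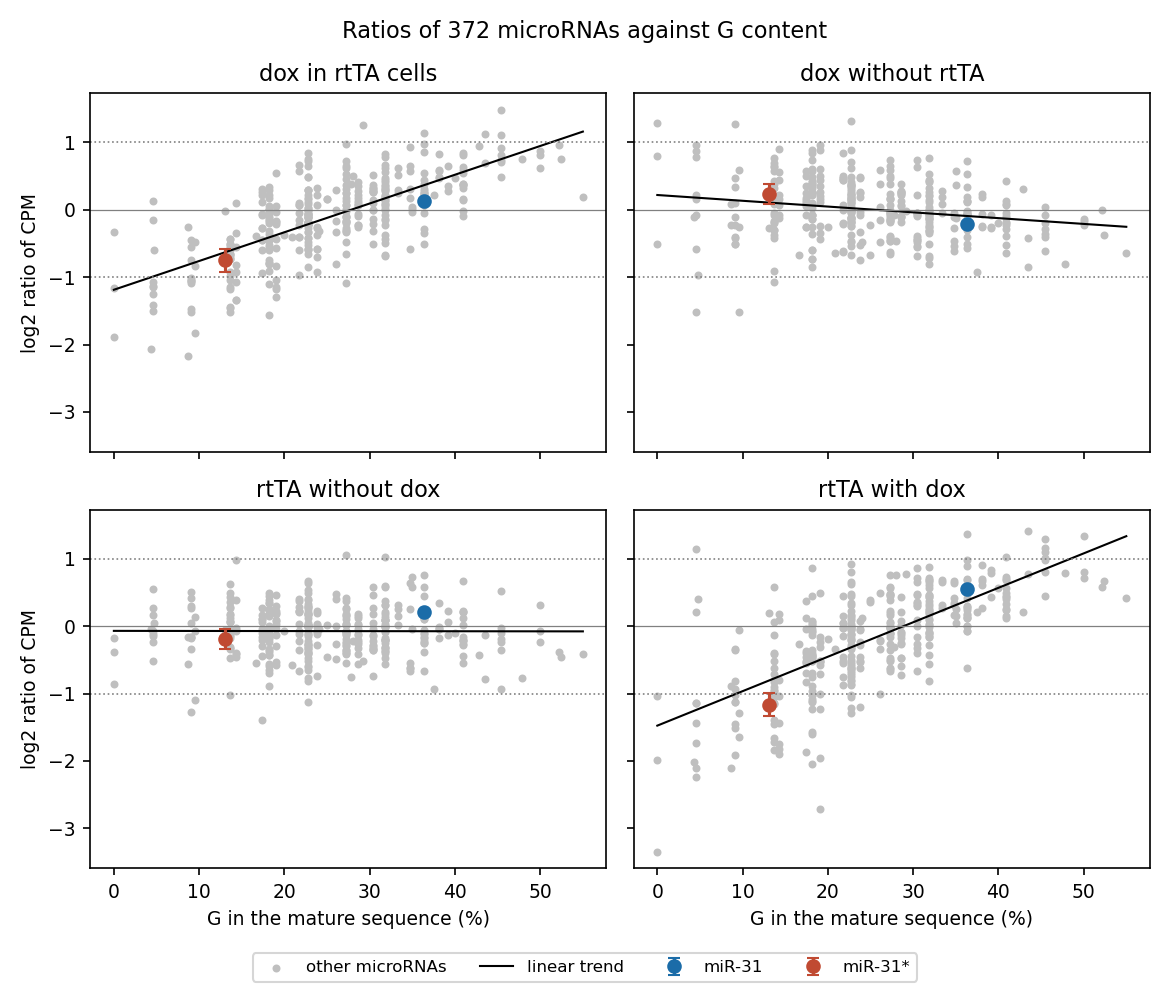
Log2 ratio of CPM against the percentage of G in the mature sequence for 372 microRNAs in the 4 comparisons, with the linear trend (line), the 2-fold limits (dotted) and both arms of miR-31 with 95% counting intervals. For dox in rtTA cells and rtTA with dox miR-31* falls among other low-G microRNAs that are also below 0.

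The arm odds followed the G difference of the arms in the same 2 comparisons. The star arm of miR-31 holds 23.3 percentage points less G than its partner. Across the 125 hairpins, the correlation of the log2 odds ratio with this difference was 0.65 for dox in rtTA cells, 0.65 for rtTA with dox, -0.01 for dox without rtTA and 0.11 for rtTA without dox. The 14 other hairpins within 5 percentage points of that difference had medians of -1.42 (dox in rtTA cells) and -1.37 (rtTA with dox), against -0.88 and -1.72 for miR-31. Of these 14, 10 and 5 lay below miR-31. After the trend on the difference was subtracted, an alternative chosen after seeing the data, the log2 odds ratio was -0.0040 for dox in rtTA cells and -0.63 for rtTA with dox, and the latter was no longer past 2-fold. It was 0.32 for dox without rtTA and -0.31 for rtTA without dox.

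**Figure D5:**
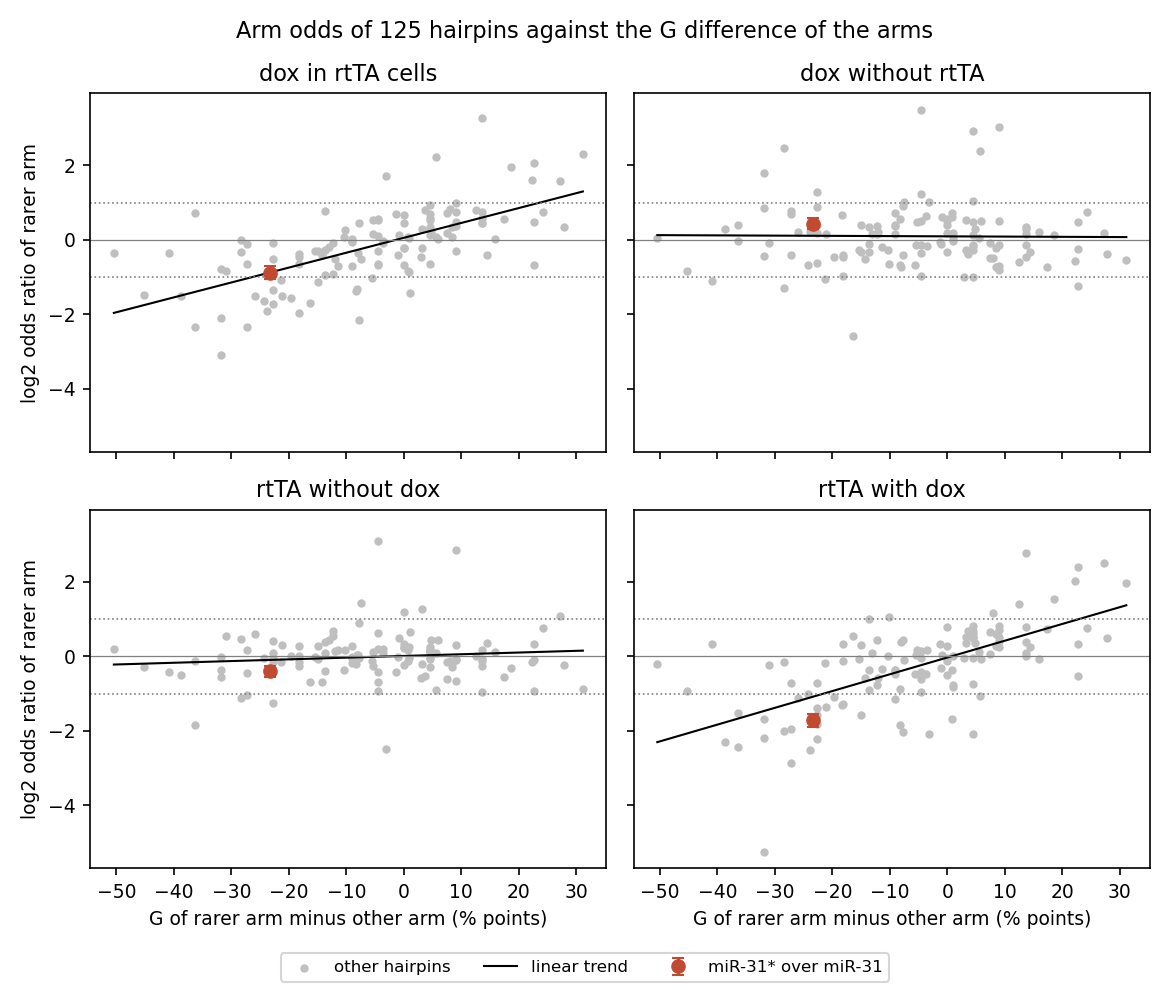
Log2 odds ratio of the rarer arm against the difference in G content between the arms, in percentage points, for 125 hairpins in the 4 comparisons, with the linear trend (line) and the 2-fold limits (dotted). The miR-31 hairpin (red, 95% interval) lies on the trend for dox in rtTA cells and below it for rtTA with dox.

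The microRNAs with a course most like that of each arm were found by the root mean square distance of log2 CPM, centred on each microRNA's own mean, over the 4 libraries. This distance does not depend on the scaling between libraries, and 4 points allow no more than a description. Nearest to miR-31 were miR-93 (0.08), miR-181d (0.08), let-7c (0.09), miR-362-5p (0.09) and miR-378* (0.09). let-7c, which is also next above miR-31 in mean level, had 17375, 15129, 18976 and 24693 CPM, in the same order of libraries as miR-31. Next below in level came miR-130a, with 16068, 18809, 16400.2 and 18432 CPM, which were not in that order. Their sequences are shown as deposited, with G in capitals, because G content is what the nearest microRNAs can be compared on.
miR-93: caaaGtGctGttcGtGcaGGtaG
miR-181d: aacattcattGttGtcGGtGGGt
let-7c: tGaGGtaGtaGGttGtatGGtt
miR-362-5p: aatccttGGaacctaGGtGtGaat
miR-378*: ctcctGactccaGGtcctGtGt
These hold 5 to 9 G each, 22.7% to 40.9% of their bases, against 36.4% in miR-31. Among them only miR-93 (34.8%) lay within 2.5 percentage points of it.

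Nearest to miR-31* were miR-410 (0.06), miR-582-5p (0.06), miR-154* (0.10), miR-450a-5p (0.10) and miR-450b-3p (0.11). miR-410 and miR-154* come from the imprinted Dlk1-Dio3 cluster, and miR-450a-5p and miR-450b-3p from a cluster on the X chromosome. miR-410 had 259, 329, 251 and 141 CPM, again highest in the no rtTA, +dox library and lowest in the rtTA, +dox library. miR-582-5p rests on 38 to 74 counts per library.
miR-31*: tGctatGccaacatattGccatc
miR-410: aatataacacaGatGGcctGt
miR-582-5p: tacaGttGttcaaccaGttact
miR-154*: aatcatacacGGttGacctatt
miR-450a-5p: ttttGcGatGtGttcctaatat
miR-450b-3p: attGGGaacattttGcatGcat
These 5 neighbours hold 3 to 5 G each, 13.6% to 22.7% of their bases, against 13.0% in miR-31*; 2 of the 5, miR-582-5p and miR-154*, lay within 2.5 percentage points of it. The star arm itself was far from its own guide: at a distance of 0.63 it ranked 329 among the 371 other microRNAs ordered by likeness to miR-31 (median distance 0.33). Neighbours in level of miR-31* were miR-872* (109, 117, 95.7 and 85.0 CPM) and miR-1188 (104, 80.0, 75.6 and 127 CPM), and only the former followed its order of libraries.

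MicroRNAs known for links to senescence, p53 or the Cdkn2a products were set beside miR-31, since these cells can senesce and its gene lies near Cdkn2a. Of the 15 on this list, 14 passed the floor. Their median log2 ratios were 0.01 (dox in rtTA cells), -0.08 (dox without rtTA), -0.02 (rtTA without dox) and 0.04 (rtTA with dox), beside -0.06, -0.04, -0.07 and -0.07 over all 372. None was called higher in any of the 4 comparisons. miR-15b, of a family that restrains the cell cycle, was called lower for dox in rtTA cells (-1.56), and miR-29c, a regulator of matrix genes, for rtTA with dox (-1.02). Each was 1 of 14. Over all 372, 9.95% (dox in rtTA cells), 1.61% (dox without rtTA) and 1.88% (rtTA without dox) were called in either direction. For rtTA with dox, 14.2% were called lower and 2.42% higher. Both miR-15b and miR-29c hold 18.2% G, and whether this bears on their ratios was not tested. The most abundant members, miR-22, miR-29b, miR-29a and miR-24, had 105220, 46958, 37100.2 and 33091 CPM in the no rtTA, -dox library, so miR-31 with 16417 CPM was below each of them. miR-34a, a direct p53 target, lay within 0.18 of 0 on the log2 scale in each comparison. Other miR-34 members on the list moved more. In the order of comparisons above, miR-34c had log2 ratios of 0.58, -0.46, -0.62 and 0.41. Those of miR-34b-5p were 0.37, -0.05, -0.74 and -0.33. The fibroblast markers had medians of -0.08, 0.09, -0.10 and -0.34 in the order of comparisons above, with 0 of 10 called in any of them. The shares called over all 372 are those just given. The Cdkn2a messenger RNA itself was not measured in these small RNA libraries, and whether senescence moved with either arm was not tested.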

How the data were processed

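Small RNA of 4 libraries was analysed. The authors deposited raw read counts, 1 per listed microRNA and 1 for the luciferase shRNA, per the file headers. Unlisted microRNAs were set to 0. The sources used here do not give the aligner, the mismatches allowed, the handling of reads with several matches or the build. Total counts ran from 6383594 to 8780954 per library, which sets the counting error.

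CPM were computed per 1000000 microRNA counts without the shRNA. Background comparisons used 372 microRNAs with a mean CPM equal to at least 20 counts in the shallowest library (3.14 CPM). Log2 ratios have exact conditional binomial 95% intervals and odds ratios exact conditional ones; differences of log2 ratios used 0.5 added to each count. The shares of hairpins used 125 pairs of arms matched by name. Code was tested on simulated data. Tools were Python 3.11.15, SciPy 1.17.1, R 4.3.3, edgeR 4.0.16 (TMM factors), DESeq2 1.42.0 (size factors) and ViennaRNA 2.7.2 (hairpin fold). No edgeR or DESeq2 test was run, as there was 1 library per group.

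Named besides the arms are neighbours in level, the 5 microRNAs with the nearest course over libraries, those nearest on the chromosome, and members of the senescence and marker lists. The members and lists were chosen with earlier results of these data known. Alternatives were other scalings, floors, G trends and leaving out near-identical microRNAs.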

Additional observations from a re-analysis of the deposited data

Results flagged for a closer look

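The dox ratios had opposite signs with and without rtTA for both arms and for their share; with 1 library per group this difference was not tested. The log2 ratio of miR-31 was 0.13 with rtTA and -0.20 without, and that of miR-31* was -0.75 with rtTA and 0.23 without. The log2 odds ratio of miR-31* over miR-31 was -0.88 with rtTA and 0.44 without. Over all microRNAs, 213 of 372 had dox ratios of opposite sign. With the trend on G subtracted, miR-31 was at -0.23 with rtTA and -0.11 without, the same sign. miR-31* was then at -0.12 (-0.29 to 0.05) with rtTA and 0.12 (-0.02 to 0.27) without, and both counting intervals spanned 0. The log2 odds ratio with rtTA, minus the trend on the G difference of the arms, was -0.0040 (-0.17 to 0.16).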

How the results depend on the processing

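Of 94 values under other settings, 61 stayed within the counting interval of the reported value (or within 1.5-fold for counts of calls) and 33 did not. miR-31 is counted so deeply that small changes of scale leave its interval. Its log2 ratios under TMM factors, DESeq2 size factors and a total without the 10 most abundant microRNAs were 0.16, 0.16 and 0.15 (dox in rtTA cells), -0.25, -0.23 and -0.19 (dox without rtTA), 0.24, 0.26 and 0.23 (rtTA without dox), and 0.65, 0.65 and 0.58 (rtTA with dox). With the shRNA in the total they were 0.10 for dox in rtTA cells and 0.52 for rtTA with dox. The difference of its dox ratios was 0.41 (TMM), 0.39 (DESeq2) and 0.30 (shRNA in the total). No scaling changed a direction or a call of either arm. With the trend on G subtracted, miR-31 was at -0.23, -0.11, 0.29 and 0.17 in the 4 comparisons in the order above, with a difference of dox ratios of -0.12. miR-31* was then at -0.12 for dox in rtTA cells and -0.36 for rtTA with dox, with a difference of dox ratios of -0.24. Its log2 odds ratio minus the trend on the G difference of the arms was -0.0040 for dox in rtTA cells and -0.63 for rtTA with dox. Calls over all microRNAs fell with the G trend from 37 to 8 (dox in rtTA cells) and from 62 to 21 (rtTA with dox). With a floor of 5 counts and with none, calls were 10 and 11 for dox without rtTA, against 6, and 14 and 15 for rtTA without dox, against 7; these test more microRNAs. No paired analysis was possible because each group has 1 library. miR-31*, on 438 to 859 counts, has wider intervals than miR-31.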
